A study of Pleurotus tuoliensis with 9 samples.

Results

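The account below covers the mycelium of *Pleurotus tuoliensis* held at 32 °C against mycelium kept at 25 °C. Its members are the 6 libraries labelled 25 °C or 32 °C, of 9 libraries in the series. All come from mycelial cells of the strain Zhongnong No.1, a cultivated mushroom related to the king oyster mushroom, grown on potato dextrose agar in the dark at 25 °C and sampled on day 13. In CK the plates stayed at 25 °C, in MHT they stood at 32 °C for the last 96 h, and the other 3 libraries, SHT, had 36 °C for the same time and enter only where named. Each group has 3 libraries from separate plates of 1 strain started from the same initial plate, so p-values measure the spread between plates of 1 strain. Libraries are named by group and number below, so that MHT3 is the third MHT plate. Every unigene was examined, a unigene being an assembled transcript unit counted on its own, and each carries the description of its best protein match. Only 3094 of the 13018 unigenes tested (23.8%) have a description that says more than hypothetical or uncharacterized protein, and the names below are those of the matched proteins.

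Filamentous fungi meet warming by adjusting membrane sterols, protein folding, mitochondrial energy supply and the cell wall. Chaperones of the HSP70, HSP90 and HSP60 families refold damaged proteins, ergosterol sets the order of the membrane, and trehalose protects proteins and membranes in fungal cells under heat. Mushroom mycelium also reads mating pheromones through STE3 receptors and breaks down plant material with secreted hydrolases and oxidases.

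A differentially expressed gene (DEG) here had an adjusted p under 0.05 in edgeR's quasi-likelihood test and at least doubled or halved, that is, its log2 fold change lay above 1 or below -1. Levels are CPM, read counts scaled to a common library total with TMM factors, which correct for depth and composition, and they do not correct for transcript length, so they compare libraries and not genes. The libraries hold 3925786 to 5014053 counts in CK and 4865930 to 6180053 in MHT, with 13335 to 13487 unigenes detected in each. Mild heat changed 1063 unigenes, 8.17% of those tested, of which 501 (3.85%) rose and 562 (4.32%) fell. The median change over all unigenes was -0.002 on the log2 scale, with a middle range (quartiles) of -0.37 to 0.36. The median DEG changed by 1.38 log2 units. Changes above 4-fold were seen in 175 DEGs (85 higher, 90 lower) and above 8-fold in 31 (21 higher, 10 lower). The DEGs that fell held 12.4% of all CPM in CK and 4.43% in MHT, and those that rose held 1.76% in CK and 6.26% in MHT. Because these are bulk samples, fewer cells of a kind and less RNA per cell cannot be told apart. CK and MHT values did not overlap in 37.5% of all unigenes tested, so lack of overlap alone does not set a unigene apart. Below, a number in brackets after a change or a library is the log2 fold change of MHT over CK, and pairs of means joined by "to" are CK and then MHT, each ± SD with n = 3. Named calls lost or moved by over 1.5-fold without a library are given with that library.

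MHT3 stood apart from the other 32 °C libraries. By Euclidean distance of log2 CPM over the tested unigenes, MHT1 and MHT2 were 43.4 apart, and MHT3 lay 75.6 and 71.3 from them. It lay 100.2 from the CK mean, against 74.9 and 70.7 for MHT1 and MHT2, and 65.1 from the SHT mean, against 85.3 and 78.8. A total of 1232 unigenes in MHT3 were over 1 log2 unit from the mean of the other MHT libraries, 298 above and 934 below, whereas 380 and 283 unigenes in MHT1 and MHT2 were that far out. In 861 of the 1232 its value was nearer to the SHT mean than theirs, and in 157 nearer to the CK mean. MHT3 was shifted from them in the direction of SHT minus CK in 86.9% of the 1232 and in 70.8% of all unigenes tested. The SHT mean includes SHT2, which was over 1 log2 unit from the mean of the other SHT libraries in 948 unigenes. Without MHT3, 795 unigenes were DEGs (6.11% of those tested). In 787 of these MHT3 moved from the CK mean in the direction called from the others, though both use the same CK libraries. MHT1 did so in 1039 of the 1051 and MHT2 in 1063 of the 1067 called without each of them. The median difference of MHT3 from CK was 1.51 in the rises called without it, where the other MHT libraries had 1.34, and -1.55 in the falls, where they had -1.39. In the DEGs of all libraries, which MHT3 helped to call, MHT3 was the MHT library farthest from CK in 319 of 501 rises and 315 of 562 falls. The share over all unigenes was not counted. Leaving it out kept 717 of the 1063 DEGs, lost 346 and added 78. Of the 1063, 711 were kept without CK3, 742 without CK1, 859 without CK2, 869 without MHT1 and 904 without MHT2, and 537 DEGs (225 higher, 312 lower) were kept whichever of the 9 libraries was left out.

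**Figure D1:**
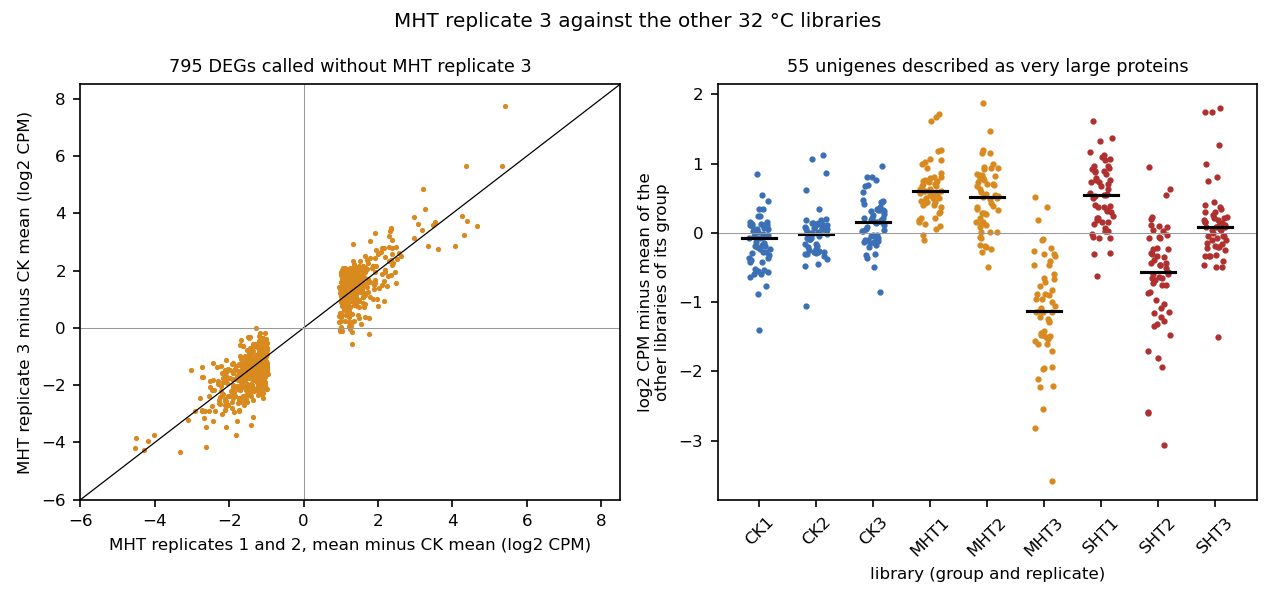
Left, log2 CPM difference from the CK mean in MHT3 (vertical axis) against that of MHT1 and MHT2 (horizontal axis) for the 795 DEGs called without MHT3, with the line of equality. Right, log2 CPM of 55 unigenes described as very large proteins relative to the mean of the other libraries of the same group, with each group and replicate on the horizontal axis and medians as bars; MHT3 has the lowest median, -1.13.

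Several unigenes far lower in MHT3 were described as very large proteins. A calcium channel protein, Gene_24639, was at 29.5 and 31.9 CPM in MHT1 and MHT2 and at 2.21 CPM in MHT3, and a dynein heavy chain, Gene_4032, the motor subunit that moves cargo along microtubules, was at 13.9, 10.8 and 1.41 CPM. A list of 55 unigenes described as such proteins was put together after these values were seen, with dynein heavy chains, glucan synthases, polyketide synthases, the vacuolar sorting protein VPS13, the Ras regulator IRA2 and the kinase TEL1, and it gets no test. In 52 of the 55 MHT3 was below the mean of the other MHT libraries, with a median difference of -1.13 log2 units, and 30 of the 55 were over 1 unit below, against 7.17% of all unigenes tested. In SHT2, which was over 1 unit below the other 36 °C libraries in 628 unigenes (104 and 177 in SHT1 and SHT3), the median was -0.57, while it was 0.55 in SHT1 and 0.09 in SHT3. Of the 55, 4 fell in MHT&CK, and 3 fell without MHT3. Over 32 unigenes of ribosomal proteins, which are small, MHT3 had a median difference of 0.45 and was below the other MHT libraries in 1. Among unigenes of the same description the difference varied, and whether consecutive IDs are pieces of 1 gene was not tested. In the 6 consecutive unigenes described as a guanine nucleotide exchange protein for ARF, it was -0.83 in Gene_780, -0.46 in Gene_781, -0.88 in Gene_782, -1.13 in Gene_783, -1.96 in Gene_784 and -1.60 in Gene_785. Transcript lengths and RNA integrity values were not used here, and the part of transcript length or RNA quality in these differences was not tested.

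Functions were then described with 44 lists of unigenes matched to words in the descriptions, of which 1566 tested unigenes belong to at least 1. The plot of log2 fold changes by list shows that most medians lay within 0.5 of 0 and that DEGs in either direction were spread over many lists. Of the 1063 DEGs, 136 were in a list, 100 more had an informative description outside the lists, and the others had none. The counts per list below stand beside 8.17% DEGs over all unigenes tested, 3.85% higher and 4.32% lower. Some unigenes were named because a rule took them, by the size of the change, by list, by zeros, by their dependence on MHT3 or because the study names them, and the others were chosen after their values were seen. The latter are Gene_597, Gene_3547, Gene_3939, Gene_4325, Gene_4327, Gene_4621, Gene_5298, Gene_6625, Gene_7715, Gene_9152, Gene_9153, Gene_9499, Gene_10118, Gene_17659, Gene_17660, Gene_18030, Gene_19698, Gene_19828, Gene_19909, Gene_19967, Gene_22162, Gene_23233, Gene_23393, Gene_23880, Gene_25536, Gene_26116, Gene_26577, Gene_11683, the very large proteins and the unigenes of uncharacterized function with the largest changes and the low-count unigenes called without the filter.

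**Figure D2:**
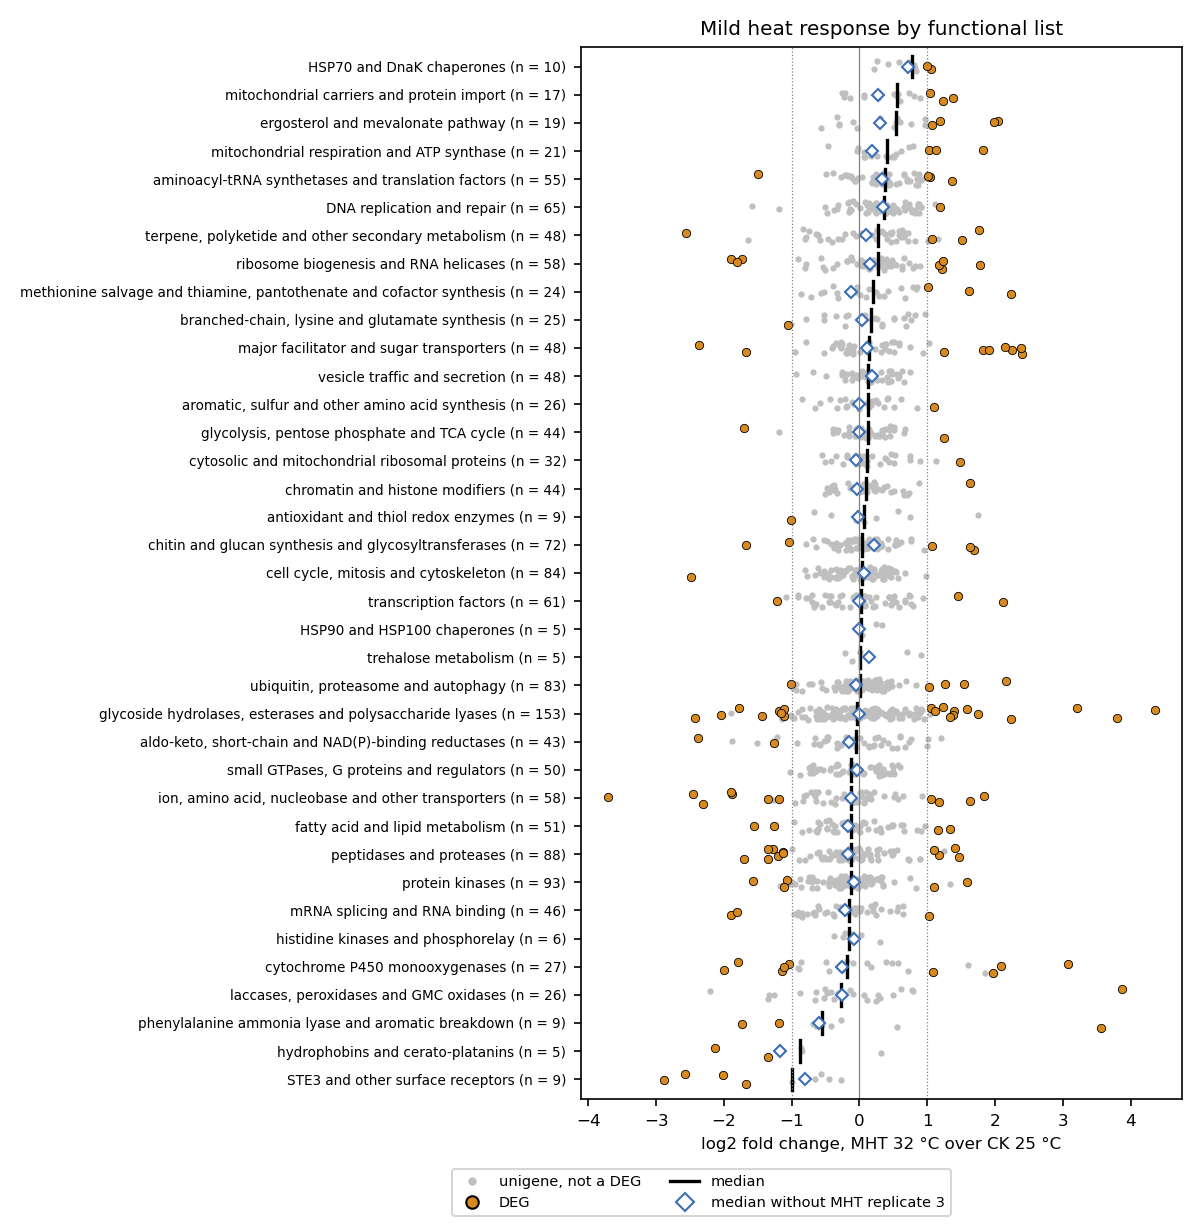
log2 fold change of MHT over CK (horizontal axis) for each tested unigene of the functional lists with at least 5 members, ordered by the median. Large points are DEGs, bars are medians with all libraries and open diamonds medians without MHT3; STE3 receptors have the lowest median, -0.99, and HSP70 chaperones the highest, 0.78, among the lists drawn.

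Receptors of the mating system were among the unigenes that fell at 32 °C. Of 9 surface receptors, 8 of them STE3-type or mating pheromone receptors, 4 fell and none rose, against 4.32% of all unigenes tested that fell. The median log2 fold change was -0.99. STE3 receptors are the G-protein-coupled receptors with which mushrooms sense lipopeptide pheromones. Gene_18486 was at 5913, 3469 and 4172 CPM in CK and 719, 721 and 398 CPM in MHT. Its change was -2.88 ± 0.30 on the log2 scale (standard error; edgeR adjusted p = 0.000142). Gene_7883 was at 631, 353 and 461 CPM in CK and 89.8, 88.9 and 62.7 CPM in MHT, Gene_18485 at 379, 271 and 373 CPM in CK and 72.6, 82.2 and 97.6 CPM in MHT. The libraries of CK and MHT did not overlap for either, and the falls were -2.58 and -2.02 on the log2 scale. Gene_7886 was at 63.3, 47.7 and 58.7 CPM in CK and 11.7, 18.0 and 23.3 CPM in MHT and also fell (-1.68). All 4 calls were kept whichever library was left out. The other pheromone receptors had log2 fold changes from -0.99 (Gene_10118) to -0.45 (Gene_23233) and did not pass, nor did a glucose-sensing receptor, Gene_11708 (-0.28). At 36 °C the means of the 4, in the order given, were 209, 34.7, 60.5 and 19.6 CPM.

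Potassium transporters changed in both directions. A row of 3 consecutive unigenes described as K+/H+ antiporters, which trade potassium for protons across membranes, fell together. Gene_1685 was at 94.0, 83.0 and 73.6 CPM in CK and 22.4, 25.4 and 20.1 CPM in MHT. It changed by -1.88 ± 0.21 on the log2 scale (standard error; edgeR adjusted p = 0.000296). Gene_1683 was at 19.0, 18.2 and 17.9 CPM in CK and 3.13, 4.51 and 3.42 CPM in MHT (-2.31) and Gene_1684 at 9.37, 9.32 and 5.89 CPM in CK and 0.825, 1.62 and 2.01 CPM in MHT (-2.46), and none of the 3 calls depended on a single library. Whether consecutive IDs are pieces of 1 gene was not tested. Another antiporter, Gene_7445, lay higher in MHT, at 138, 90.7 and 89.3 CPM in CK and 210.0, 216 and 178 CPM in MHT, but its log2 fold change of 0.93 did not pass, and it passed without MHT3 (1.01). A TRKH-type potassium transporter, Gene_25536, was at 8.79, 9.11 and 8.08 CPM in CK and 29.2, 17.3 and 15.5 CPM in MHT and rose (1.26), a call lost without CK1 (1.29), CK3 (1.21) or MHT1 (0.92). Among the 58 ion, amino acid, nucleobase and other transporters, 4 rose and 7 fell, with a median of -0.12. These are 19.0% of the list, against 8.17% of all unigenes tested. Only 4 fell when CK1, CK3 or MHT3 was left out.

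Transporters of single nutrients changed in both directions. The cytosine-purine permease Gene_10842, which imports nucleobases, had the largest fall among informative DEGs, at 83.8, 44.9 and 72.7 CPM in CK and 6.76, 5.59 and 2.81 CPM in MHT. The change was -3.71 ± 0.33 on the log2 scale (standard error; edgeR adjusted p = 5.71e-05). An ammonium transporter, Gene_5298, was at 0.586, 1.91 and 2.62 CPM in CK and 5.94, 7.58 and 5.62 CPM in MHT and rose (1.83), which did not pass without CK1 (1.51). An aquaporin-like protein, Gene_19828, of the water and glycerol channels, was at 5.86, 6.78 and 7.21 CPM in CK and 18.6, 19.3 and 23.9 CPM in MHT, all MHT libraries being above every CK library, and rose (1.63) in every fit. The GABA permease Gene_9499 rose from 18.3 ± 4.35 to 41.6 ± 10.5 CPM (1.18) and did not pass without MHT3 (0.95). An oligopeptide transporter, Gene_25383, fell (-1.89) at the low end of detection, with 2.05, 2.54 and 3.49 CPM in CK and 0.825, 1.08 and 0.201 CPM in MHT, and the call was lost without CK1 (-2.01), CK2 (-1.94), CK3 (-1.66), MHT1 (-2.01) or MHT3 (-1.5). Of the 48 major facilitator (MFS) and sugar transporters 7 rose and 2 fell (18.8%, against 8.17% of all unigenes tested). Only 3 rose without CK3 or MHT3 and 4 without CK1, and 1 fell without CK3 or MHT3. Gene_7316 was at 24.3, 23.7 and 21.6 CPM in CK and 3.79, 5.59 and 4.02 CPM in MHT and fell (-2.37) in every fit. Gene_16882 was at 3.81, 22.9 and 4.37 CPM in CK and 38.6, 53.0 and 77.5 CPM in MHT (2.40). CK2 was the highest CK library for it, and the log2 fold change became 3.77 without that library, while the call was lost without CK3 (2.03), MHT2 (2.44) or MHT3 (2.10). Gene_26842 and its neighbour Gene_26843 had the same profile, with 21.4, 82.6 and 20.5 CPM in CK and 116, 158 and 381 CPM in MHT for the former (2.38) and 1.91 for the latter. The calls were lost without CK1 (2.10), CK3 (2.05), MHT3 (1.71) or SHT1 (2.37) for Gene_26842 and lost without CK1 (1.71), CK3 (1.63) or MHT3 (1.43) for Gene_26843, and the values became 3.38 and 2.62 without CK2.

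Phenylalanine ammonia lyase, the enzyme that turns phenylalanine into cinnamic acid, had unigenes that went opposite ways. Gene_14393 was at 126, 118 and 105 CPM in CK and 1717, 997 and 1417 CPM in MHT, with every MHT library above every CK library. It rose by 3.56 ± 0.31 on the log2 scale (standard error; edgeR adjusted p = 4.99e-05). Gene_14605, described as phenylalanine ammonia-lyase 2, was at 286, 181 and 240.0 CPM in CK and 83.5, 84.0 and 45.6 CPM in MHT and fell (-1.73). Both calls held in every fit with a library left out. A copper amine oxidase, Gene_23793, of the enzymes that oxidise primary amines, fell from 22.6 ± 1.21 to 9.94 ± 1.14 CPM (-1.18). In the list of phenylalanine ammonia lyases and aromatic breakdown, 1 of 9 rose and 2 fell, and the median was -0.55.

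Oxidative enzymes, many of which act outside the cell, had few DEGs in their list. Of 26 laccases, peroxidases and GMC oxidases 1 rose and none fell, with a median of -0.27, and 1 fell without CK1 or MHT2. That DEG was the copper radical oxidase Gene_422, a producer of extracellular hydrogen peroxide, at 199, 884 and 274 CPM in CK and 5400.0, 9060.0 and 5524 CPM in MHT. It changed by 3.88 ± 0.58 on the log2 scale (standard error; edgeR adjusted p = 0.00194). CK2 was again the highest CK library, and the log2 fold change became 4.82 without it. Outside the list, the quinoprotein glucose dehydrogenase Gene_8167, which oxidises sugars, was at 334, 249 and 221 CPM in CK and 77.4, 64.4 and 49.2 CPM in MHT and fell (-2.07). A heme peroxidase, Gene_7345, which the study names a mitochondrial cytochrome-c peroxidase, was at 2.93, 17.2 and 6.11 CPM in CK and 34.8, 38.8 and 89.2 CPM in MHT and rose (2.59), but the call was lost without CK3 (2.38) or MHT3 (2.02), and the value became 3.54 without CK2. Of 9 antioxidant and thiol redox enzymes, only a catalase fragment, Gene_6329, passed, and without CK1 another member rose. It was at 1227, 1323 and 1486 CPM in CK and 601, 808 and 588 CPM in MHT and fell (-1.01), and the call was lost without CK3 (-0.94), MHT1 (-0.95) or MHT3 (-0.93).

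Cytochrome P450 monooxygenases, haem enzymes that hydroxylate lipids, sterols and xenobiotics, were among the groups with the largest share of DEGs. Of 27 members 4 rose and 5 fell (33.3%, against 8.17% of all unigenes tested), and the median was -0.19. Gene_22162 was at 296, 248 and 369 CPM in CK and 87.8, 84.2 and 93.0 CPM in MHT and fell (-1.78) in every fit. The rises were less stable, as no member rose without MHT3, 1 did without CK3 or MHT1, and 2 without CK1 or SHT1, while 3 fell without CK1, MHT1 or MHT2. Gene_11537, described as a high nitrogen upregulated P450, showed this at 16.7, 9.96 and 13.1 CPM in CK and 71.0, 41.5 and 222 CPM in MHT, where MHT3 was the highest. It rose by 3.08 ± 0.77 on the log2 scale (standard error; edgeR adjusted p = 0.0293). This call was lost without CK3 (3.08), MHT1 (3.32) or MHT3 (2.10). The neighbours Gene_24656 and Gene_24658 rose by 2.09 and 1.97, with 3.81, 15 and 4.58 CPM in CK and 39.8, 16.2 and 46.2 CPM in MHT for the first, and both calls were lost without CK1, CK3, MHT1, MHT3 or SHT1, with values of 1.66 (Gene_24658 without MHT3) to 2.08 (Gene_24656 without SHT1). Without CK2, their highest CK library, they became 3.002 and 2.66.

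Carbohydrate-active enzymes, the largest list, had 12 of 153 higher and 8 lower, with a median of -0.03. The share of DEGs was 13.1%, against 8.17% of all unigenes tested. Cellulose-directed enzymes were on both sides. The exoglucanases Gene_26402 and Gene_26401, which release cellobiose from cellulose chain ends, both rose. Gene_26402 was at 3.52, 2.97 and 1.75 CPM in CK and 17.3, 31.4 and 26.5 CPM in MHT (3.20) and Gene_26401 at 0.586, 0.847 and 0.655 CPM in CK and 12.4, 24.9 and 7.43 CPM in MHT (4.36). The latter became 3.77 without MHT2. A further exoglucanase, Gene_597, was at 4.98, 5.08 and 5.89 CPM in CK and 2.31, 3.25 and 1.41 CPM in MHT and fell (-1.18), a call lost without CK1 (-1.20), CK2 (-1.22), CK3 (-1.10), MHT1 (-1.17) or MHT3 (-0.94). A protein with a family 1 carbohydrate-binding module, which binds cellulose, Gene_3939, fell from 5.18 ± 0.85 to 1.48 ± 0.68 CPM (-1.77) in every fit. Among the others, the family 13 module protein Gene_24017 was at 0.293, 1.70 and 0.873 CPM in CK and 12.4, 10.1 and 21.1 CPM in MHT and rose (3.81, and 4.49 without CK2). The carbohydrate esterase Gene_6625 of family 15 rose (2.23), with 0.586, 0.424 and 0.437 CPM in CK and 1.81, 2.35 and 2.81 CPM in MHT, and did not pass without CK3 (2.17). A polysaccharide lyase of family 8, Gene_4621, rose from 10.4 ± 2.64 to 27.3 ± 7.48 CPM (1.39) in every fit. The family 3 glycoside hydrolase Gene_12726 was at 213, 119.5 and 183 CPM in CK and 50.6, 42.2 and 31.7 CPM in MHT and the family 92 glycoside hydrolase Gene_7222 at 8.49, 12.7 and 13.8 CPM in CK and 2.31, 2.52 and 1.61 CPM in MHT, and both fell (-2.05 and -2.43) in every fit.

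Several enzymes of the sterol pathway rose. Ergosterol, the main membrane sterol of fungi, is made from isoprenoid units of the mevalonate pathway. Of the 19 unigenes of that list 4 rose and none fell, against 3.85% of all unigenes tested that rose. The median log2 fold change of the list was 0.54. Isopentenyl-diphosphate isomerase, Gene_4707, which makes the reactive isoprenoid unit, was at 80.3, 106 and 83.2 CPM in CK and 307, 254 and 508 CPM in MHT. It rose by 1.99 ± 0.26 on the log2 scale (standard error; edgeR adjusted p = 0.000644). C-8 sterol isomerase, Gene_1612, a late step of ergosterol synthesis, was at 33.1, 44.5 and 34.3 CPM in CK and 133, 124 and 204 CPM in MHT. Its rise was 2.04 ± 0.22 on the log2 scale (standard error; edgeR adjusted p = 0.000183). MHT3 was the highest library for both, and without it the rises were 1.65 and 1.78 and still passed. C-3 sterol dehydrogenase, Gene_3555, rose (158 ± 30.0 to 360.0 ± 93.7 CPM, 1.18) and did not pass without MHT3 (0.95). Sterol C-24 methyltransferase, Gene_22349, rose (185 ± 17.8 to 387 ± 147 CPM, 1.06), a call lost without CK1 (1.03), CK3 (1.05) or MHT3 (0.71). Of the 15 members that did not pass, 9 had positive values, up to 0.97 for the C-24(28) reductase Gene_26577 and 0.97 for a lanosterol 14-alpha-demethylase, Gene_18030, and 6 had negative values, down to -0.57 for a C-4 methylsterol oxidase, Gene_18816. Farnesyl-diphosphate farnesyltransferase (squalene synthase), Gene_26116, which the word pattern missed, did not pass either (0.80). Without MHT3 the list had 2 rises and a median of 0.31. Other sterol enzymes are named by the study and not by the descriptions. HMG-CoA reductase, which makes mevalonate, has the consecutive unigenes Gene_8173 to Gene_8176. Gene_8173 was at 38.1, 42.6 and 32.8 CPM in CK and 118, 86.0 and 96.4 CPM in MHT and rose (1.41) in every fit. Gene_8174 went from 199.8 ± 34.1 to 504 ± 135 CPM (1.33), a call lost without CK1 (1.27) or CK3 (1.29). Gene_8175 and Gene_8176 did not pass (1.27 and 1.44). The C-5 sterol desaturase Gene_17310, deposited as a fatty acid hydroxylase, was at 129, 165 and 141 CPM in CK and 352, 316 and 301 CPM in MHT and rose (1.16) in every fit. Without MHT3 the values of the 3 that rose were 1.43, 1.49 and 1.20. An oxysterol-binding protein, Gene_4364, of the lipid carriers between membranes, went the other way, at 47.5, 30.3 and 38.4 CPM in CK and 7.26, 9.20 and 10.0 CPM in MHT, and fell (-2.13) in every fit. A UbiA prenyltransferase, Gene_5861, which attaches prenyl chains to ring compounds, also fell, at 494, 247 and 263 CPM in CK and 54.6, 53.8 and 61.5 CPM in MHT (-2.56).

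Among terpene and other secondary metabolism 3 of 48 rose and 1 fell, with a median of 0.28. The terpenoid synthase Gene_21846 was at 14.3, 16.3 and 13.8 CPM in CK and 61.0, 43.8 and 45.8 CPM in MHT, the MHT libraries all being far above those of CK. It rose by 1.76 ± 0.21 on the log2 scale (standard error; edgeR adjusted p = 0.000429). A second one, Gene_26145, was at 36.9, 60.8 and 41.5 CPM in CK and 81.8, 83.3 and 128 CPM in MHT and rose (1.07), a call lost without CK1 (0.96), CK3 (0.99) or MHT3 (0.83).

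The lists of respiration and of mitochondrial carriers had positive medians, and their calls depended on MHT3 and on CK3. Of 21 unigenes of respiration and ATP synthase 3 rose and none fell, with a median of 0.40. Of 17 mitochondrial carriers and import proteins 3 rose and none fell, with a median of 0.55. Over all unigenes tested 3.85% rose. Without MHT3 neither list had a DEG and the medians were 0.19 and 0.28. Without CK3 none of the first list and 1 of the second rose, and without CK1, 1 of the first. Cytochrome c1, Gene_16755, a subunit of respiratory complex III, was at 82.6, 118 and 96.5 CPM in CK and 174, 159 and 316 CPM in MHT (1.13). An inner membrane import translocase, Gene_14350, was at 62.7, 65.2 and 59.8 CPM in CK and 112, 117 and 215 CPM in MHT (1.24). In both cases MHT1 and MHT2 were already above all CK libraries, with log2 fold changes of 0.75 and 0.87 without MHT3. The call for Gene_16755 was lost without CK1 (1.04), CK3 (1.11) or MHT3 (0.75), and that for Gene_14350 was lost without MHT3 (0.87). Mitochondrial elongation factor Ts, Gene_7768, which serves translation inside the organelle, was at 22.9, 29.0 and 27.5 CPM in CK and 56.3, 50.1 and 98.2 CPM in MHT and kept its rise (1.36) in every fit, at 1.00 without MHT3. The words for mitochondrially encoded genes matched only 1 unigene, Gene_16988, described as the succinate dehydrogenase subunit Sdh3p. Whether it is encoded in the mitochondrion was not tested. Its log2 fold changes were -0.004 with all libraries and -0.44 without MHT3, which was 1.04 log2 units above the other MHT libraries. The corresponding medians were 0.41 for respiration and 0.66 for the carriers. Iso-1-cytochrome c, the small electron carrier, is given with the low-count unigenes below.

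Of 10 HSP70 and DnaK unigenes 2 rose and none fell, against 3.85% of all unigenes tested that rose, with a median of 0.78 (0.71 without MHT3). None rose without CK1, CK3 or MHT3, and 1 rose without any other single library except MHT2. Of the chaperones without DEGs, the 5 HSP90 and HSP100 unigenes had a median of 0.03 and the 4 J-domain unigenes one of 0.04. The words for small heat shock proteins matched no description, and those for mitochondrial chaperonins matched only BCS1, Gene_24937, an assembly factor of complex III, at 0.88, which passed without MHT2. Gene_6270, an HSP70, was at 245, 277 and 221 CPM in CK and 519, 429 and 596 CPM in MHT. It rose by 1.06 ± 0.28 on the log2 scale (standard error; edgeR adjusted p = 0.0265). The call was lost without CK1 (1.07), CK2 (1.15), CK3 (0.98), MHT1 (1.05) or MHT3 (0.94). An HSP70 of the endoplasmic reticulum lumen, Gene_9154, was at 70.9, 84.1 and 73.1 CPM in CK and 133, 116 and 208 CPM in MHT (1.00), a call lost without CK1 (0.98), CK3 (0.97), MHT3 (0.71), SHT1 (0.99), SHT2 (0.99) or SHT3 (0.99). Its neighbours Gene_9153 and Gene_9152 had 0.84 and 0.81, with adjusted p = 0.00588 and 0.018 in edgeR's quasi-likelihood test, and stayed under the fold threshold. The chaperonin GroL, Gene_19698, of the HSP60 family, was at 642, 964 and 769 CPM in CK and 1391, 1264 and 1922 CPM in MHT, a log2 fold change of 0.95 with adjusted p = 0.0293, also under the fold threshold. The study lists Gene_19698 among its DEGs, which could pass in any of its comparisons. It also lists a mitochondrial co-chaperonin, which is not described here. The HSP90 unigene Gene_19909 was at 492, 473 and 479 CPM in CK and 685, 577 and 558 CPM in MHT (0.33, adjusted p = 0.342). The SHT means of Gene_6270 and Gene_19698 were 889 and 2821 CPM. Trehalose 6-phosphate synthase had 2 unigenes with adjusted p under 0.05 and a fold under the threshold, Gene_17660 at 0.90 and Gene_17659 at 0.70, and none of 5 trehalose unigenes was a DEG. One of them, at most, passed with a library left out (1 without MHT1).

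Synthesis of cofactors and amino acids changed at single steps. Ketopantoate hydroxymethyltransferase, Gene_14199, which commits to pantothenate and thereby to coenzyme A, was at 10.8, 12.5 and 6.55 CPM in CK and 39.1, 36.6 and 65.9 CPM in MHT. It rose by 2.24 ± 0.28 on the log2 scale (standard error; edgeR adjusted p = 0.000548). The next enzyme, ketopantoate reductase, Gene_7715, lay at 0.85 (adjusted p = 0.0061), under the fold threshold, and pantothenate kinase, Gene_23395, rose from 39.9 ± 9.15 to 80.6 ± 16.7 CPM (1.01), a call lost without CK1 (0.91), CK3 (0.96) or MHT3 (0.83). Imidazole glycerol phosphate synthase, Gene_4773, of histidine synthesis, was at 58.0, 83.9 and 69.2 CPM in CK and 149, 159 and 239 CPM in MHT and rose (1.37) in every fit. A thiamine metabolism protein, Gene_3689, was at 42.5, 27.3 and 27.7 CPM in CK and 37.1, 134 and 126 CPM in MHT and rose (1.61), with MHT1 among the CK values, and the call was lost without CK2 (1.5), CK3 (1.51), MHT2 (1.32) or MHT3 (1.40). In the cofactor list 3 of 24 rose, and 1 did without CK3 or MHT3. Of 26 unigenes of aromatic, sulfur and other amino acid synthesis 1 rose, a call that only the fits without CK1 or MHT2 kept. Of 25 of branched-chain, lysine and glutamate synthesis 1 fell, and none without CK1, CK2, MHT1 or MHT2. Glycolysis, the pentose phosphate pathway and the TCA cycle had 1 rise and 1 fall in 44, with a median of 0.12, and the rise was lost without CK1, CK3 or MHT3.

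RNA handling had both falls and rises. A row of 3 helicase unigenes fell, Gene_17109 and Gene_17110, described as the splicing and ribosome-assembly helicase PRP43, and Gene_17108, a DEAH-box helicase. Gene_17109 was at 34.6, 35.0 and 39.5 CPM in CK and 10.4, 10.8 and 8.04 CPM in MHT, with all MHT libraries below all CK libraries. It changed by -1.89 ± 0.23 on the log2 scale (standard error; edgeR adjusted p = 0.000497). Gene_17110 and Gene_17108 also fell (-1.80 and -1.74), and the 3 calls were kept in every fit. Whether these consecutive IDs are pieces of 1 gene was not tested. Of the other unigenes described as PRP43, Gene_11683, at 103, 116 and 113 CPM in CK and 117, 125 and 94.6 in MHT, did not pass (0.02). On the other side, ribosome biogenesis proteins rose, with TSR1, Gene_10211, at 1.47, 2.12 and 1.31 CPM in CK and 4.95, 4.33 and 8.04 CPM in MHT (1.79), the U3 small nucleolar proteins Gene_4325 and Gene_4327 (1.22 and 1.17) and MAK16, Gene_16708, at 9.37, 18.0 and 17.5 CPM in CK and 29.7, 31.4 and 62.1 CPM in MHT (1.44), all 4 kept in every fit. Over the list of ribosome biogenesis and RNA helicases 4 of 58 rose and 3 fell, with a median of 0.27. Among 32 ribosomal proteins 1 rose (2 without MHT1 or MHT2), and among 55 tRNA synthetases and translation factors 3 rose and 1 fell, with a median of 0.37. In the latter list 1 rose without MHT3 and 5 rose without CK2 or MHT2, and the fall was lost without any 1 of CK2, CK3, the MHT libraries or SHT1.

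None of 50 small GTPases and G-protein regulators passed with all libraries, and 1 fell without MHT1. Over these 50, 61 transcription factors and 93 protein kinases the medians were -0.12, 0.03 and -0.13. A zinc cluster transcription factor, one of the DNA-binding regulators found in fungi, rose in 2 neighbouring unigenes. Gene_2796 was at 33.1, 47.0 and 30.1 CPM in CK and 99.7, 116 and 87.2 CPM in MHT (1.46) and Gene_2795 at 0.879, 1.70 and 2.40 CPM in CK and 7.92, 8.84 and 5.62 CPM in MHT (2.11), and both held in every fit. Spt8, Gene_19939, a subunit of the SAGA coactivator complex, fell from 28.7 ± 5.62 to 12.4 ± 1.03 CPM (-1.22), and a SET domain protein, Gene_6497, of the lysine methyltransferase fold, rose from 5.95 ± 1.52 to 18.7 ± 1.37 CPM (1.64). Among the transcription factors 2 rose and 1 fell with all libraries, 4 rose without MHT3, 3 fell without MHT1 and 2 without SHT2. Among the kinases 2 rose and 3 fell, and 1 rose without CK2, CK3, MHT2 or MHT3, whereas none fell without CK1 or CK3 and 1 without MHT3. The 3 falls are in 1 run of consecutive IDs, Gene_26674 to Gene_26681. The word pattern did not take in 11 unigenes described as Pkinase-domain-containing proteins, of which 2 rose and 1 fell (27.3%). CAND1-like cullin-associated protein Gene_12831, which exchanges the substrate receptors of cullin ubiquitin ligases, was at 0.879, 2.33 and 3.27 CPM in CK and 14.5, 7.03 and 8.64 CPM in MHT and rose (2.16), and the proteasome-tethering factor Gene_4804 rose from 8.02 ± 0.454 to 19.3 ± 5.10 CPM (1.26). Autophagy protein 17, Gene_17544, was at 9.67, 11 and 10.0 CPM in CK and 19.6, 17.9 and 25.5 CPM in MHT and rose (1.03), and did not pass without MHT3 (0.87). Of 88 peptidases 4 rose and 7 fell, and 2 rose without MHT1 or MHT3. A subtilisin-like protease, Gene_7234, fell from 55.4 ± 14.1 to 16.9 ± 2.64 CPM (-1.71), as did the aminopeptidase Gene_21156 (-1.35), whereas the dipeptidyl aminopeptidase Gene_26252 rose (1.41).

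Surface proteins fell in part. Of 5 hydrophobins and cerato-platanins, small secreted proteins of the fungal surface, 2 fell and none rose, against 4.32% of all unigenes tested that fell. Without CK1, CK3 or MHT1, 1 fell. The median was -0.87, and -1.17 without MHT3. The cerato-platanin Gene_5083 was at 1928, 1276 and 1503 CPM in CK and 599.6, 696 and 561 CPM in MHT (-1.34), a call lost without CK1 (-1.14), CK3 (-1.37), MHT1 (-1.32) or MHT3 (-1.28). The hydrophobin Gene_6238 was at 6.15, 25.6 and 13.8 CPM in CK and 2.48, 5.41 and 2.61 CPM in MHT (-2.13) and fell in every fit, by 1.53 without CK2, its highest library. Hydrophobin 3, Gene_22549, was at 615, 492 and 659 CPM in CK and 308, 214 and 447 CPM in MHT, a log2 fold change of -0.87 that passed without MHT3 (-1.17). Of 72 unigenes of chitin and glucan synthesis and glycosyl transfer 3 rose and 2 fell, with a median of 0.04, and none rose without CK3 or MHT1 and none fell without CK2, MHT1 or MHT3. The chitin synthases, which make a structural polymer of the wall, went both ways. Gene_15050 and its neighbour Gene_15051 were at 17.6, 57.8 and 27.9 CPM in CK and 144, 111 and 81.8 CPM in MHT and 22.9, 57.6 and 29.0 CPM in CK and 151, 119.6 and 68.5 CPM in MHT and rose (1.69 and 1.62). Both calls were lost without CK3 (1.56 and 1.48) or MHT1 (1.47 and 1.36), Gene_15051 also without CK1 (1.41), and Gene_15050 became 2.29 without CK2. Gene_23393, chitin synthase 2, was at 2361, 1460.0 and 1809 CPM in CK and 1079, 1168 and 481 CPM in MHT and fell (-1.04), a call lost without CK1 (-0.82), CK2 (-1.20), CK3 (-1.07), MHT1 (-1.19), MHT3 (-0.74), SHT1 (-1.04) or SHT3 (-1.04). Fruiting-associated proteins were checked as the other state the mycelium could enter. Of 4 such unigenes 1 rose, the fruit body lectin Gene_26920 at 9.08, 14.2 and 12.4 CPM in CK and 24.6, 26.3 and 43.0 CPM in MHT (1.38), a call lost without CK1 (1.25) or CK3 (1.41), and a pleurotolysin pore subunit, Gene_3547, was at 1905, 1173 and 1507 CPM in CK and 583, 601 and 703 CPM in MHT and did not pass (-1.28), whereas 1 of the list fell without SHT2 or SHT3.

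**Figure D3:**
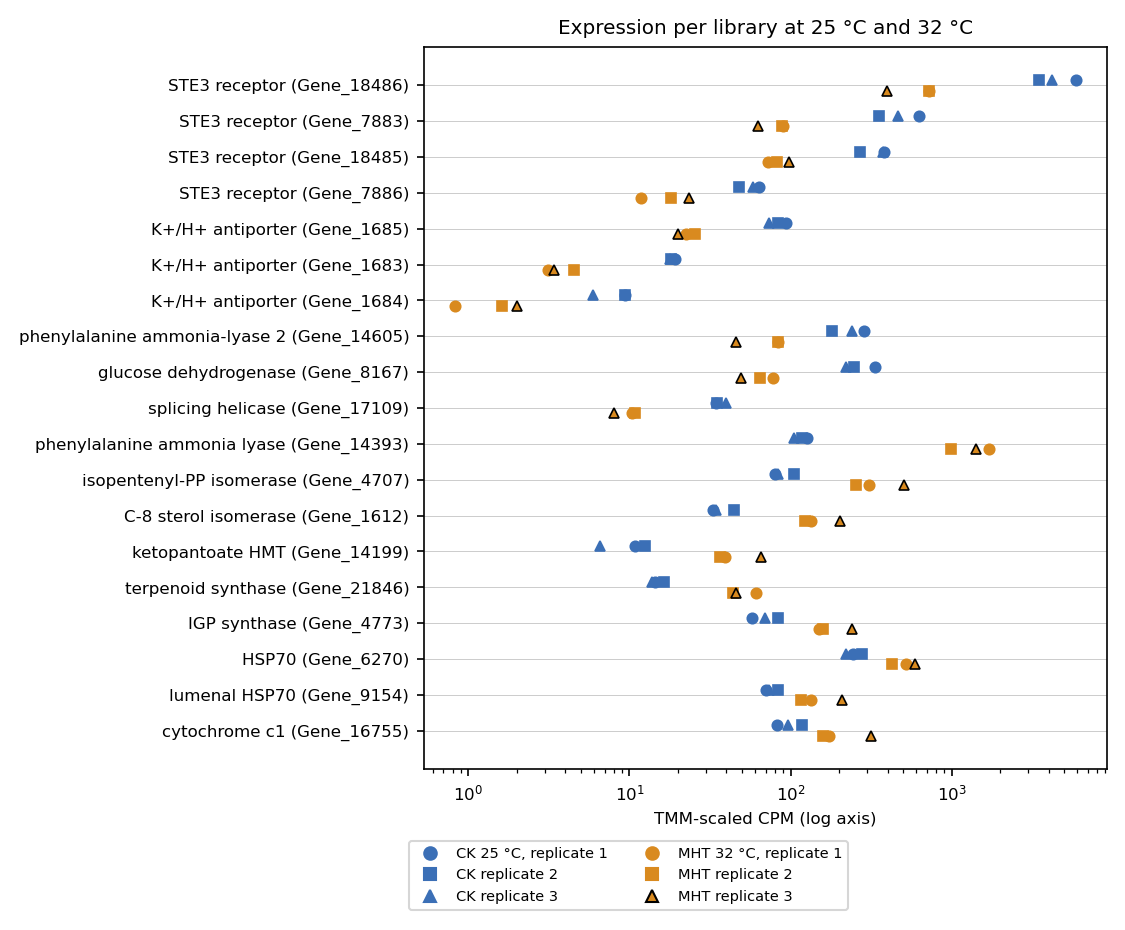
TMM-scaled CPM on a log axis for 19 unigenes discussed in the text, with 1 point per library, CK above and MHT below each line and MHT3 outlined. In the STE3 receptors and K+/H+ antiporters all MHT points lie to the left of the CK points, and in the sterol, pantothenate and HSP70 unigenes they lie to the right.

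Several lists had few or no DEGs at 32 °C. None of 48 unigenes of vesicle traffic passed (1 fell without CK1), and 1 of 65 of DNA replication and repair rose. It was the MCM protein Gene_4211, of the family that includes the replicative helicase, which went from 21.2 ± 2.65 to 48.3 ± 14.5 CPM (1.18), a call lost without CK1 (1.11) or MHT3 (0.93), and 2 rose without CK2 or SHT2. Of 84 of the cell cycle and cytoskeleton 1 fell, an actin-like unigene at low counts, Gene_5758, at 0.586, 11.2 and 5.24 CPM in CK and 0.66, 1.44 and 1.00 CPM in MHT (-2.49), a call lost without CK2 (-1.57), CK3 (-2.57), MHT1 (-2.24), MHT2 (-2.82), MHT3 (-2.48), SHT1 (-2.49) or SHT3 (-2.49). The medians of the 3 lists were 0.13, 0.36 and 0.04. The word pattern of the vesicle list did not take in VPS13, a lipid transfer protein at membrane contact sites, of which 3 of 4 consecutive unigenes fell. Gene_4674 went from 49.1 ± 1.91 to 18.0 ± 7.10 CPM (-1.44), and Gene_4676 and Gene_4677 fell (-1.34 and -1.40). They are among the very large proteins in which MHT3 was low, and without it the values were -1.15, -1.10 and -1.14 and still passed.

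The largest changes of all were in unigenes whose match has no described function. Gene_1889 was at 11.1, 10.4 and 3.93 CPM in CK and 286, 416 and 1759 CPM in MHT. It rose by 6.61 ± 1.04 on the log2 scale (standard error; edgeR adjusted p = 0.00514). Without MHT3, by far the highest library, it became 5.38 and still passed. Gene_22535 was at 0.879, 3.39 and 4.80 CPM in CK and 119.6, 115 and 148 CPM in MHT and rose (5.33), and Gene_5798 at 1.76, 1.91 and 2.62 CPM in CK and 53.3, 47.8 and 124 CPM in MHT (5.13). Gene_9311 was at 4.10, 4.45 and 3.06 CPM in CK and 9.40, 107 and 136 CPM in MHT, MHT1 being close to CK, and its rise (4.44) was lost without CK3 (4.28) or MHT3 (3.91). There were 5 falls of over 4 log2 units, and all were in unigenes of this kind. Gene_11952 was at 865, 1521 and 997 CPM in CK and 50.6, 61.1 and 56.2 CPM in MHT and Gene_11960 at 348, 884 and 547 CPM in CK and 22.9, 24.9 and 37.8 CPM in MHT, and both fell (-4.33 and -4.38). Gene_11968 was at 164, 316 and 206 CPM in CK and 9.57, 8.66 and 11.7 CPM in MHT (-4.52), and the 3 IDs lie close together. Gene_15456 went from 46.7 ± 26.1 to 2.13 ± 0.299 CPM (-4.44) and Gene_10192 from 67.4 ± 17.5 to 4.01 ± 0.539 CPM (-4.07). All 5 falls were kept in every fit.

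Values at 36 °C are given beside those at 32 °C, with the reminder that both comparisons share the CK libraries. The 501 unigenes that rose at 32 °C had a median log2 fold change of 1.37, and their median in SHT&CK was 1.40. For the 562 that fell these medians were -1.40 and -1.51. In SHT&CK 362 of the former and 433 of the latter were called in the same direction. The difference between the heat treatments was tested directly in SHT&MHT, where 435 and 492 of them did not pass. A smaller set turned back. In 75 unigenes, 0.576% of those tested, the change at 32 °C was a DEG and so was the opposite change from 32 °C to 36 °C. MHT enters both contrasts. The number was 58 to 67 without a CK library, 33 without MHT1, 57 without MHT2, 91 without MHT3, 49 without SHT1, 104 without SHT2 and 28 without SHT3. Of the 75, 47 peaked and 28 dipped at 32 °C.

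**Figure D4:**
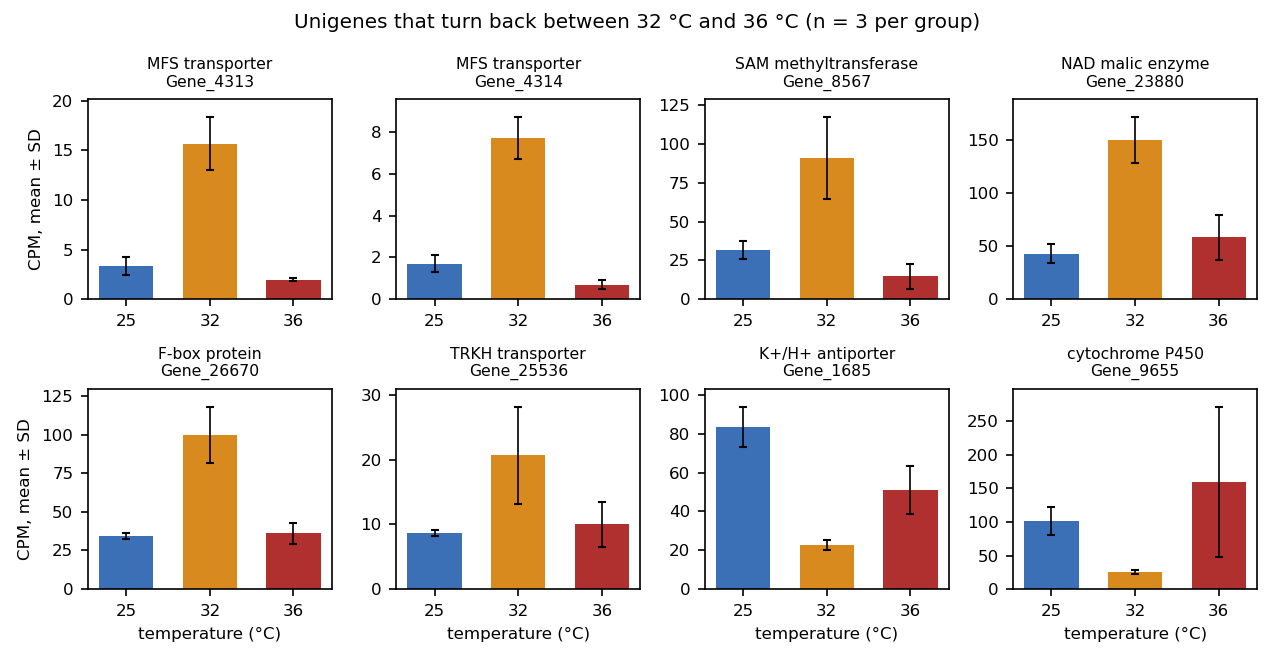
Mean CPM (bars) and SD (error bars, n = 3) at 25 °C, 32 °C and 36 °C for 8 unigenes called in both MHT&CK and SHT&MHT with opposite signs. The MFS transporters Gene_4313 and Gene_4314 are highest at 32 °C, and the antiporter Gene_1685 is lowest there.

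The neighbouring MFS transporters Gene_4313 and Gene_4314 peaked at 32 °C. Gene_4313 was at 4.39, 2.75 and 2.84 CPM in CK and 14.0, 18.8 and 14.3 CPM in MHT with a mean of 1.99 ± 0.129 at 36 °C (± SD, n = 3), rising by 2.25 on the log2 scale in MHT&CK and changing by -2.97 in SHT&MHT. Gene_4314 was at 1.47, 1.48 and 2.18 CPM in CK and 6.93, 7.39 and 8.84 CPM in MHT with 0.705 ± 0.211 in SHT (2.14 and -3.42). A methyltransferase that uses S-adenosylmethionine, Gene_8567, was at 36.6, 25.2 and 33.6 CPM in CK and 98.2, 61.7 and 113 CPM in MHT with 14.7 ± 7.97 in SHT (1.52 and -2.63). NAD-dependent malic enzyme, Gene_23880, which turns malate into pyruvate, was at 52.7, 40.2 and 35.8 CPM in CK and 169.9, 152 and 127 CPM in MHT with 58.2 ± 21.4 in SHT (1.80 and -1.36). An F-box protein, Gene_26670, of the receptors that choose ubiquitin ligase targets, was at 35.7, 34.7 and 32.3 CPM in CK and 115, 105 and 79.8 CPM in MHT with 36.2 ± 6.83 in SHT (1.54 and -1.46). The SHT mean was below the CK mean in Gene_4313, Gene_4314 and Gene_8567 and within 1.5-fold of it in Gene_23880 and Gene_26670, and both calls held whichever library was left out. The dip of the antiporter Gene_1685, at 50.9 ± 12.3 CPM in SHT (1.17 in SHT&MHT), was kept in the same fits. Gene_14393, the phenylalanine ammonia lyase, also peaked, with 564 ± 209 in SHT (-1.29 in SHT&MHT), a turn lost without MHT1, SHT1 or SHT3. The dip of the P450 Gene_9655, with 84.7, 95.5 and 124 CPM in CK and 21.3, 26.9 and 28.1 CPM in MHT and 159 ± 112 in SHT, was lost without CK3, any 1 of the MHT replicates, SHT1 or SHT3. The peak of the TRKH transporter Gene_25536 (-1.04 in SHT&MHT) was lost without any 1 of the CK replicates, MHT1, MHT2, SHT2 or SHT3.

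Unigenes with zeros in 1 group were examined next, since the test took only unigenes counted in every library. Of the 935 left out, 206 were at 0 in all 6 libraries, 158 were at 0 in all CK libraries and counted in MHT, 70 were at 0 in all MHT libraries and counted in CK, and 501 had counts in both groups. Nearly all of the 1-sided ones are very low. Of the 158, 122 had 3 counts or fewer in MHT together, 116 were counted in 1 library, and 12 had at least 10 counts. Of the 70, 50 had 3 counts or fewer, 57 were counted in 1 library, and 10 had at least 10. MHT3 gave 42.2% of the counts of the 158, and 47 of them were counted in it alone, against 36 and 33 in MHT1 and MHT2 alone. Without it, 6 in place of 12 had at least 10 counts. MHT3 also filled zeros, as 105 unigenes counted in CK were at 0 in MHT1 and MHT2, and 35 of these had counts in MHT3. A total of 0 over a group allows up to 3 counts, or 0.236 CPM in CK and 0.181 CPM in MHT, and these limits cover counting error only.

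**Figure D5:**
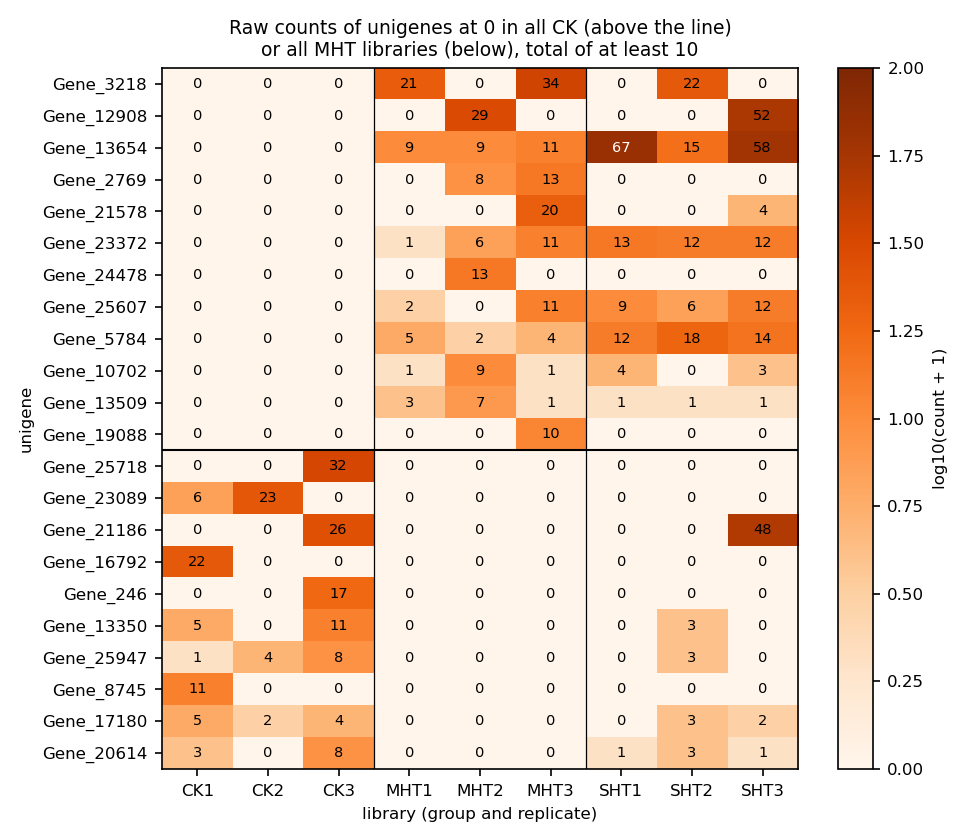
Raw counts per library for the unigenes at 0 in all CK libraries (above the line) or in all MHT libraries (below) with at least 10 counts in the other group, coloured by log10(count + 1). Most rows have their counts in 1 or 2 libraries of that group, and Gene_13654, Gene_23372, Gene_5784 and Gene_13509 have counts in all MHT and SHT libraries.

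Few of these were spread over the plates. Gene_13654, a hypothetical protein, had 0 counts in CK and 9, 9 and 11 in MHT, at least 7.41-fold higher over the group, and 67, 15 and 58 in SHT. Gene_5784 had 5, 2 and 4 counts in MHT and Gene_23372 had 1, 6 and 11, at least 2.81-fold and 4.60-fold higher. These 3 unigenes, with no described function, were the only ones at 0 in all CK libraries that edgeR called when run without the filter. None at 0 in all MHT libraries was called. Unigenes of both kinds were picked by their zeros, so they are described by their counts and the calls are no separate support. The informative ones were mostly single-plate counts. A COPII coat protein, Gene_21578, of the vesicles that leave the endoplasmic reticulum, had 20 counts in MHT3 and 0 in the other 5 libraries. A phosphatidylserine decarboxylase, Gene_24478, had 13 counts in MHT2 alone, and a FabD/lysophospholipase-like protein, Gene_19088, had 10 in MHT3 alone. In the other direction a mitochondrial glycine-tRNA ligase, Gene_25718, had 32 counts in CK3 alone, an adaptor for signal transduction, Gene_16792, had 22 in CK1 alone, and a P-loop NTPase, Gene_13350, had 5 and 11 in CK1 and CK3.

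Partial zeros held clearer responses. Without the filter edgeR called 18 of the 935 left out, 13 higher and 5 lower. Iso-1-cytochrome c, Gene_21063, had 0, 0 and 2 counts in CK and 17, 21 and 28 in MHT, and then 68, 38 and 68 in SHT. On the log2 scale it rose by 4.49 (adjusted p = 0.00209, edgeR's quasi-likelihood test without the filter), a value that depends on the prior count. The other unigene of that description, Gene_18302, was counted in all libraries, at 0.879, 1.91 and 0.873 CPM in CK and 3.13, 3.43 and 7.03 CPM in MHT, and rose (1.82), a call lost without CK1 (1.69), CK3 (1.61) or MHT3 (1.37). An acid protease, Gene_5018, had 1, 1 and 0 counts in CK and 5, 7 and 9 in MHT (adjusted p = 0.0376), and a transposase domain protein, Gene_17983, had 1, 0 and 0 against 6, 7 and 7 (adjusted p = 0.0344). The partial loss with the most counts was in a hypothetical protein, Gene_24696, with 110, 201 and 184 counts in CK, 22, 0 and 17 in MHT and 25, 29 and 26 in SHT (adjusted p = 0.00184). An actin fragment, Gene_5759, had 0, 32 and 16 counts in CK and 2, 1 and 0 in MHT (adjusted p = 0.0424), with CK1 at 0 as well.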

How the data were processed

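RNA from 9 plates of mycelium was sequenced as paired reads. Per the labels and the methods, the authors used fastp for trimming, Bowtie2 for removing ribosomal reads, HISAT2 for alignment and StringTie for transcript assembly, and deposited 1 table of raw whole-number read counts per unigene with a protein description, in which unnormalized counts differ in total between libraries. For these tools the sources used here give no version, nor do they name the tool that counted reads. The strand setting is not stated, so overlapping unigenes and their antisense partners cannot be told apart, and near-identical copies can share reads.

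The 13018 unigenes with a count in all 9 libraries were fitted with edgeR 4.0.16 (R 4.3.3; TMM, glmQLFit and glmQLFTest, 1 model of group over 9 libraries), with Benjamini-Hochberg adjustment over all of them. Zeros were examined in raw counts, with 3 counts over a group as the limit behind a 0. Alternatives were DESeq2 1.42.0, other scalings, filters and thresholds, a replicate block and leaving out each library. The steps were checked on simulated counts, where 90% of 3-fold and 99% of 6-fold changes in MHT&CK were recovered. These changes were set only in unigenes above a minimum mean count, and smaller folds were not tried. The simulated libraries of a group differed only in depth and random spread. The check therefore does not cover low-count unigenes or a library that stands apart as MHT3 does. Functional lists were word patterns in the descriptions. Named unigenes were the 15 largest informative rises and falls with a mean scaled count of at least 50 and no overlap, up to 4 DEGs per list, up to 5 zeros per direction, 10 DEGs moving most and 10 called only without MHT3, 5 reversals per direction, runs of 4 or more consecutive IDs and unigenes the study names. The members and lists were chosen with earlier results of these data known.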

Additional observations from a re-analysis of the deposited data

How the results depend on the processing

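The DEGs in MHT&CK numbered 1173 with DESeq2 (1053 shared), 1061 with DESeq2-type size factors in edgeR, 1055 without the filter and 1067 when CK and MHT were fitted alone. With an adjusted p under 0.01 there were 631 (280 higher, 351 lower, 20 reversing at 36 °C), and with no fold threshold 1940 (976 higher, 964 lower, 127 reversing). DESeq2 gave 99 reversing unigenes. Leaving out 1 library at a time gave 757 to 1136 DEGs, with 319 to 537 DEGs in MHT&CK higher in MHT and 412 to 599 DEGs in MHT&CK lower in MHT, and 28 to 104 reversing unigenes. Of the 145 DEGs taken by the naming rule or chosen later, 88 were called under every alternative and 92 whichever library was left out, and none changed sign under any alternative. Same-numbered CK and MHT plates did not deviate together (correlations of -0.042, -0.2 and -0.227). Plates with different numbers had correlations of -0.121 to 0.216. With 3 libraries per group these values cannot settle whether the numbers pair the plates. With the replicate number as a block 990 unigenes were DEGs (460 higher, 530 lower), 952 of them shared. Depth limits the low end, where a group total of 0 allows up to 3 counts.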

Other observations

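Unigenes with consecutive IDs sometimes changed together. There were 5 runs of at least 4 consecutive DEGs of the same direction, of which 1 rose and 4 fell. The 5 unigenes Gene_13071 to Gene_13075 fell by 2.04 to 2.36 on the log2 scale, share 2 best matches of unknown function and were all called without MHT3. The 8 from Gene_26674 to Gene_26681, among them 1 described as the DNA damage kinase TEL1 (Gene_26679) and 2 as serine/threonine-protein kinases, fell with a median of -1.34, and 3 were called without MHT3. Gene_3874 to Gene_3877 fell with a median of -1.36 and include a family 78 glycoside hydrolase and a six-hairpin glycosidase (3 of 4 without MHT3). Gene_23581 to Gene_23584 fell with a median of -1.28 and include a RabGAP/TBC protein, a regulator of vesicle GTPases (3 of 4 without MHT3). Gene_12115 to Gene_12120 rose with a median of 1.09, and 2 of 6 were called without MHT3. The files do not pair IDs with positions, so whether a run is 1 gene or several was not tested.

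Grouped by the words of the description, the largest shares of DEGs among groups of at least 10 unigenes were 30.4% of 23 described as cytochrome p450 (3 higher, 4 lower), 27.6% of 29 described as MFS general substrate transporter (6 higher, 2 lower), 27.3% of 11 protein kinase domain proteins (2 higher, 1 lower) and 22.6% of 31 alpha/beta-hydrolases (3 higher, 4 lower). Of 19 such groups 6 had no DEG. In the largest group, 80 P-loop nucleoside triphosphate hydrolases, 3 rose and 3 fell (7.5%), near the 8.17% of all unigenes tested.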
